A study of Homo sapiens with 15 samples.

Results

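The genes described here are 41 protein-coding genes that were silent in cycling HT-1080 cells and gave reads in every senescent vehicle library. They were chosen by their own counts. A gene had to have at most 3 counts in each of the 3 cycling libraries and at least 15 counts in each of the 6 senescent vehicle libraries. Gene symbols that start with LCE1, COL, MMP, IL or CXCL were left out, as were ZNF genes on chromosome 19. The table held 60670 genes, of which 19902 were protein-coding. Of the coding genes, 6290 were at or under 3 counts in each cycling library, and 42 of these (0.668%) were at or above 15 counts in each senescent vehicle library. The symbol limits removed 1 of them, COL20A1, which left the 41 members. Because counts of senescent and cycling cells chose the members, the difference between these cells is described without a test. Of the tested comparisons, that of GNF-7 at 24 h with GNF-7 at 6 h used no library of the rule. The others used the senescent vehicle libraries, in which the rule had set a floor.

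Each of the 15 libraries came from 1 established line, the human fibrosarcoma line HT-1080. Cycling cells received the vehicle DMSO and carry the time label 6 h. All other cells first expressed a dominant negative form of TRF2 for 6 days, which uncaps telomeres and makes the cells senescent. These senescent cells received DMSO for 6 h, DMSO for 24 h, 1 uM GNF-7 for 6 h or 1 uM GNF-7 for 24 h. Each of the 5 groups has 3 libraries whose titles call them biological replicates, and no label says whether they came from separate cultures, so p-values measure the spread between these libraries. The libraries were made with a stranded kit for poly(A) RNA. No cycling group received GNF-7, and no cycling group has the 24 h label, so the effects of GNF-7 and of time described here are effects in senescent cells. The compound GNF-7 inhibits tyrosine kinases, and the title of the study ties its action on senescent cells to the kinase GCN2.

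A differentiated or cancer cell keeps many coding genes of other tissues silent, often through closed chromatin and DNA methylation. Senescence is a lasting exit from the cell cycle, and the chromatin of senescent cells is known to be reorganised, with transcription from genes and repeats that are otherwise quiet. In vertebrate genomes methylated cytosines stand mainly in CG pairs and tend to be lost over evolution, so promoters of tissue-restricted genes often hold few CG pairs and promoters of widely used genes often hold many.

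Total counts per library ranged from 25991007 to 32323393. TERF2, the gene of TRF2, was at 55.7 to 62.4 CPM (counts scaled to a common library size) in cycling cells. In senescent vehicle cells it was at 278 to 293 CPM at 6 h and at 212 to 226 CPM at 24 h. With GNF-7 it was at 212 to 227 CPM at 6 h and at 128 to 138 CPM at 24 h. A count per gene does not separate its mutant from its own transcript. Of 8 mesenchymal markers, 7 were at 15 counts or more in every library, and THY1 was at 0 in each of them. Their summed level was 9905 to 10196 CPM in cycling cells, 10552 to 12044 CPM in vehicle, 9099 to 10015 CPM in GNF-7 at 6 h and 6242 to 6625 CPM in GNF-7 at 24 h. The 7 epithelial markers summed to 743 to 759 CPM in cycling cells, 396 to 473 CPM in vehicle, 349 to 366 CPM in GNF-7 at 6 h and 293 to 302 CPM at 24 h. KRT8 and KRT18 were at 15 counts or more in every library. ESRP1 went the other way and reached 15 counts in every library of both GNF-7 groups, but not of the cycling or vehicle groups. The 4 endothelial markers summed to 0.503 to 2.37 CPM over all groups, with the highest values in GNF-7 at 24 h. Of 6 leukocyte markers 1 (CD68) reached 15 counts in each library of any group, and their summed level was 2.24 to 3.70 CPM in cycling cells, 3.68 to 4.90 CPM in senescent vehicle cells, 2.86 to 5.07 CPM in GNF-7 at 6 h and 3.02 to 4.44 CPM in GNF-7 at 24 h. The 5 neuron markers summed to 5.15 to 6.89 CPM in cycling cells, 14.9 to 18.9 CPM in senescent vehicle cells, 24.3 to 26.2 CPM in GNF-7 at 6 h and 19.95 to 22.4 CPM in GNF-7 at 24 h, and STMN2 was at 0 in each cycling and vehicle library. The part of these levels in the results below was not tested.

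The limits of the rule lie within a continuous range of counts. GRIK2, SARM1 and ANKK1 lay just inside the cycling limit, with a highest cycling count of 3, and ARMH1, ZNF423 and SLCO2B1 lay just outside with 4. MYO16, LY96 and ABCC9 lay just inside the senescent limit, with a lowest vehicle count of 15, and NTN5, MAPK4 and KEL lay just outside with 14. In all, 16 members had a highest cycling count of 3, and 11 members had a lowest vehicle count of 15 to 19. At the other end, 7 members had no count in any cycling library (ABCC9, MAPK15, PNLIPRP3, PSG2, SPINK1, ZNF117 and ZSCAN4), and 17 members had at least 30 counts in every vehicle library. The same limits turned around, at least 15 counts in each cycling library and at most 3 in each senescent vehicle library, were met by 0 coding genes.

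Summed over the 41 members, a cycling library held 40 to 50 counts, a senescent vehicle library 1639 to 1903 counts at 6 h and 1641 to 1831 at 24 h. The mean level over the 6 vehicle libraries was 1.297 CPM for the median member, with a range from 0.774 to 3.17 CPM. Per length, the median member was at 0.287 RPKM (CPM per kilobase of exon), against 5.64 RPKM for the median of the 12165 coding genes at the same floor. Of those genes, 3.51% were below the median member, so the members were on at low levels. In the edgeR fit of senescent against cycling vehicle cells, 35.6% of the 18563 genes tested were called higher and 34.4% lower. The members were chosen on this contrast, and nothing is read from their calls in it. In a bulk sample, reads from a few cells that express a gene strongly and from many cells that express it weakly cannot be told apart.

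The levels per length set the members in another order than the counts. CRH, which encodes the stress neuropeptide corticotropin-releasing hormone, was highest at 1.41 RPKM, followed by LY96 (1.37), FOLR3 (1.11), C19orf85 (1.00), KLHL38 (0.949), KLK14 (0.944), CALML6 (0.720), ZSCAN4 (0.683), ANKK1 (0.613) and PNLIPRP3 (0.560). The coefficient of variation over the 6 vehicle libraries was 15.6% for CRH, 37.9% for LY96, 17.8% for FOLR3 and 16.01% for C19orf85. CRH and LY96 therefore do not differ beyond this spread, nor do KLHL38 and KLK14. Counts of CRH were 3, 0 and 3 in cycling cells, 75, 55 and 70 in vehicle at 6 h, and 56, 61 and 63 in vehicle at 24 h. SARM1, an enzyme that cleaves NAD and drives the breakdown of injured axons, had the highest mean at 6 h, 3.55 ± 0.175 CPM (SD, n = 3), and was at 0.285 RPKM over the 6 vehicle libraries, with exons of 11137 bases.

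Against a floor of 3 counts over the cycling group, the 7 members without a cycling count were at least 49.9-fold (ZNF117), 43.0-fold (ZSCAN4), 37.1-fold (PNLIPRP3), 34.5-fold (ABCC9), 29.1-fold (MAPK15), 22.5-fold (PSG2) and 21.6-fold (SPINK1) higher in senescent vehicle cells. Among the others, the ratio of normalised counts was 16.3 for GRIK2 (exact 95% counting interval 8.16 to 38.2) and, the highest, 103 for CNTNAP4 (18.3 to 4.09e+03). GRIK2 had 3, 2 and 3 counts in cycling cells and 34 to 62 in vehicle, while CNTNAP4 had 1, 0 and 0 counts in cycling cells and 16 to 52 in vehicle. CRH had a ratio of 30.4 (13.8 to 83.3) and SARM1 one of 33.6 (16.95 to 78.3). The intervals overlap widely, so the members cannot be ranked by this ratio, and intervals and floors cover counting error only. The rule chose the members on these same counts, so a high ratio was fixed in advance. Neither ratios nor intervals allow for that choice.

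**Figure D1:**
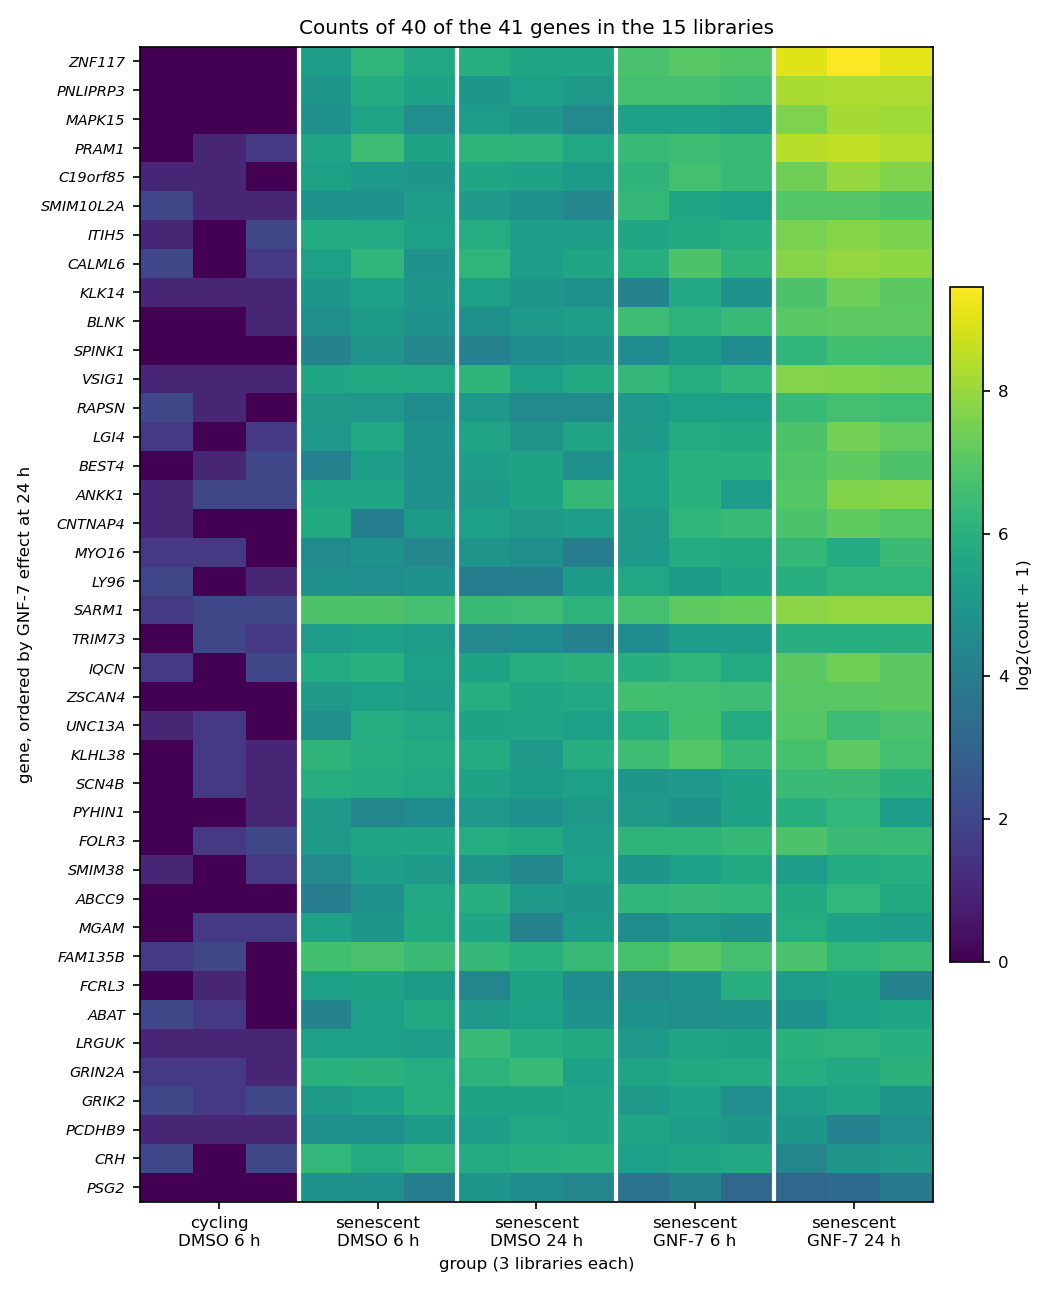
Counts of 40 of the 41 genes in the 15 libraries, drawn as log2(count + 1), with 1 row per gene and 1 column per library and the 3 libraries of each group side by side. The cycling columns hold at most 3 counts by the rule, the vehicle columns at least 15, and ZNF117 reaches 702 counts in GNF-7 at 24 h.

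ZNF117, a zinc finger gene (ENSG00000152926, GRCh38 chr7:64971776-65006684, minus strand), had 0 counts in each cycling library. It had 38, 71 and 51 counts in vehicle at 6 h and 58, 46 and 48 counts in vehicle at 24 h. GNF-7 libraries held 106, 127 and 117 counts at 6 h and 511, 702 and 539 counts at 24 h. The rule required all vehicle libraries to lie above the cycling ones. All GNF-7 libraries, which did not enter the rule, lay above all vehicle libraries. Against a floor of 3 counts over the cycling group, senescent vehicle cells were at least 49.9-fold higher. GNF-7 raised ZNF117 at 6 h (log2 fold change 1.12, SE 0.18, edgeR adjusted p 7.695e-07) and at 24 h (3.44, SE 0.16, edgeR adjusted p 4.369e-27), the largest rise among the members. Vehicle cells at 24 h and 6 h differed by 0.01 (SE 0.21, edgeR adjusted p 0.979).

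The position of ZNF117 overlaps that of ERV3-1, a coding gene of an endogenous retrovirus, on the same strand, and 4.08% of the 50-base stretches of ZNF117 transcripts also occur in other genes. Reads in the shared stretch cannot be told apart by gene. ERV3-1 had 3, 6 and 2 counts in cycling cells, 55, 50 and 40 in vehicle at 6 h, 52, 51 and 44 in vehicle at 24 h, and 326, 336 and 287 in GNF-7 at 24 h. It thus showed the same order of groups as ZNF117, and its highest cycling count of 6 was over the limit for a member. Its log2 fold change with GNF-7 was 0.91 at 6 h (SE 0.19, edgeR adjusted p 0.0001045) and 2.60 at 24 h (SE 0.18, edgeR adjusted p 3.246e-20).

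ZSCAN4, a zinc finger gene known from early embryos and embryonic stem cells, where it is tied to telomere maintenance (ENSG00000180532, chr19:57668935-57679152, plus strand), also had 0 counts in each cycling library. Vehicle libraries held 34, 42 and 37 counts at 6 h and 58, 47 and 51 at 24 h, at least 43.0-fold above the cycling floor. GNF-7 libraries held 95, 94 and 90 counts at 6 h and 126, 132 and 133 at 24 h, again without overlap with vehicle. The log2 fold change was 1.29 at 6 h (SE 0.22, edgeR adjusted p 1.849e-06) and 1.24 at 24 h (SE 0.20, edgeR adjusted p 4.581e-07), and the difference of these effects, -0.06 (SE 0.30, edgeR adjusted p 0.922), was not called. TPRG1LP1, a processed pseudogene, ends 3896 bases upstream of ZSCAN4 on the same strand. It had 0, 2 and 3 counts in cycling cells, 123 to 171 in vehicle and 232 to 267 in GNF-7 at 24 h. Whether reads of the pseudogene run on into ZSCAN4 was not tested.

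**Figure D2:**
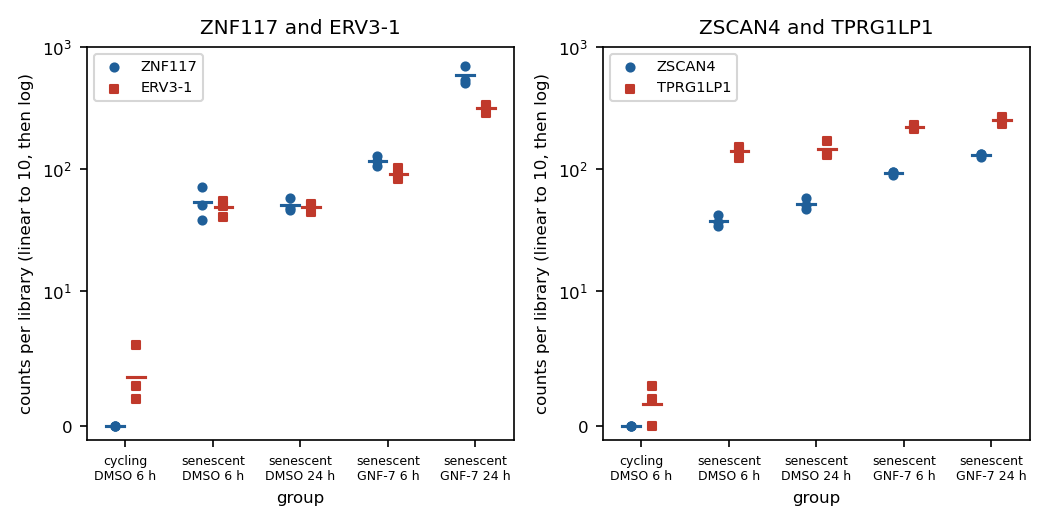
Counts per library (linear to 10, then a log axis) of ZNF117 with the overlapping gene ERV3-1 and of ZSCAN4 with the upstream pseudogene TPRG1LP1, for the 5 groups, with points for libraries and bars for means. ZNF117 and ERV3-1 lie at similar counts in vehicle, and ZNF117 is the higher of the pair in GNF-7 at 24 h (511 to 702 against 287 to 336 counts).

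Promoter windows of the members were set beside those of other coding genes. RefSeq windows on GRCh38.p14, from 250 bases before to 50 bases after the start, were found by symbol for 30 of the 41 members. Members without one included KLHL38, MAPK15, PSG2, RAPSN, LY96, PRAM1, CRH, FAM135B, VSIG1 and SMIM38. The ratio of observed to expected CG pairs had a median of 0.382 in the 30 members. The median was 0.345 in 4415 coding genes that were silent in cycling cells and 0.833 in 10898 coding genes with over 3 counts in a cycling library. A ratio of at least 0.6 was reached by 9 members (30%), by 32.3% of the silent genes and by 80.5% of the others. The members thus had CG-poor promoters about as often as silent genes as a whole, and 9 members had CG-rich ones.

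**Figure D3:**
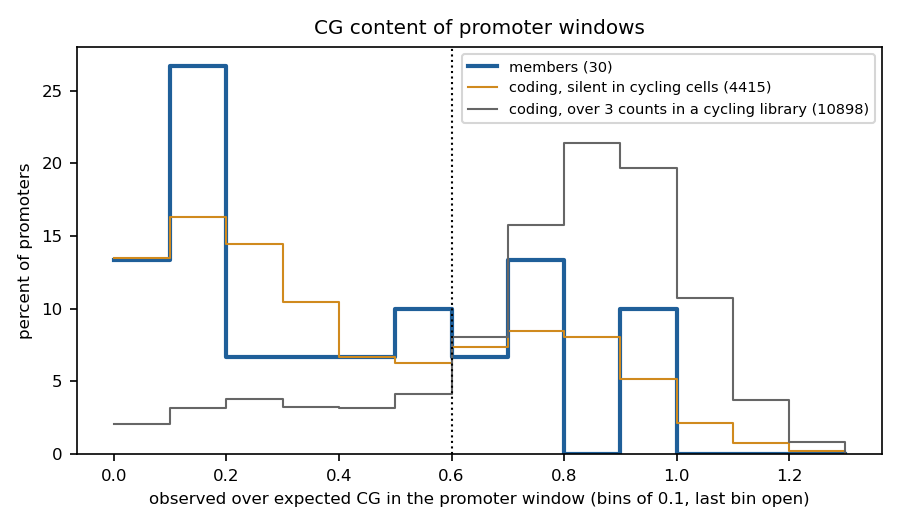
Share of promoter windows (percent, vertical) by the observed over expected ratio of CG pairs (horizontal, bins of 0.1) for 30 members, 4415 silent coding genes and 10898 coding genes with reads in cycling cells, with a dotted line at 0.6. Most members and most silent genes lie left of the line, and 9 of 30 members lie at or past it.

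The 250 bases before the start are printed for 5 members to show both kinds of promoter, with CG pairs in capitals. PNLIPRP3 (chr10:116427597-116427846, plus strand), ZSCAN4 (chr19:57668685-57668934, plus) and SPINK1 (chr5:147831672-147831921, minus) had no count in cycling cells and hold 1, 2 and 0 CG pairs. ITIH5 (chr10:7666967-7667216, minus) and SARM1 (chr17:28371444-28371693, plus) had up to 3 counts in cycling cells and hold 28 and 23 CG pairs. ABCC9 also had no count in cycling cells and has 15 CG pairs in these bases and a ratio of 0.98, so a lack of cycling counts did not go with few CG pairs in every member.
PNLIPRP3: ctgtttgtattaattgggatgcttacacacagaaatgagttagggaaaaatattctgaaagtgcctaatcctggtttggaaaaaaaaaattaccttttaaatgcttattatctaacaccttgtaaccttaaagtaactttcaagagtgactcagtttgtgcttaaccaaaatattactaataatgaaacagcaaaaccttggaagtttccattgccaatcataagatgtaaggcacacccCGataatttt
ZSCAN4: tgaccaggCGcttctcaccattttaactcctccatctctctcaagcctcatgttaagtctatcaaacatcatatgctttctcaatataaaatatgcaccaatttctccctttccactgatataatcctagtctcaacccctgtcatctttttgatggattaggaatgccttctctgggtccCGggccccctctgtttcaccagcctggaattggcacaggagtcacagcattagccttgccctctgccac
SPINK1: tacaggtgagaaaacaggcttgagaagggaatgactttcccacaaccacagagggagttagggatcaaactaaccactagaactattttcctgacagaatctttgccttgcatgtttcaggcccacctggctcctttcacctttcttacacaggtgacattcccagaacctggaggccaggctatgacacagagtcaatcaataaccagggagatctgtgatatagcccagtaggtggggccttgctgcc
ITIH5: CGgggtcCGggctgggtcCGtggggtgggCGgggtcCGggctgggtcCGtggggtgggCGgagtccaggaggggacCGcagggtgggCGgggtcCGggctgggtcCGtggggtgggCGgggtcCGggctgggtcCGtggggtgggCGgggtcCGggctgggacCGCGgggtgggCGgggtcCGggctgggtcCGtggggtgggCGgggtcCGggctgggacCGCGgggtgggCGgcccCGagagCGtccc
SARM1: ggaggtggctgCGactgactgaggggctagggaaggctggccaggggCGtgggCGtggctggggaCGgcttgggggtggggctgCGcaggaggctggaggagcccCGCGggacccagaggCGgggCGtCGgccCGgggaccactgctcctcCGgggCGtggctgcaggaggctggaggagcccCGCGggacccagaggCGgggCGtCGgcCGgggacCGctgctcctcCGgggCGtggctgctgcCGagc

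Short motifs were searched on both strands of the windows, and none of them contains another. The AP-1 motif (TGACTCA or TGAGTCA) occurred in 2 members, 6.67% of 30, against 3.67% of all 15313 coding promoters and 4.82% of those of silent genes. It starts 104 bases before the start of PNLIPRP3, in lower case in the run above, and 25 bases before that of IQCN. The ATF4-CEBP motif TGATGNAA occurred in FCRL3 alone, 3.33% of the members' windows, against 2.53% of all and 4.24% of silent genes. TATAAA occurred in ZSCAN4 alone, against 9.59% of all and 18.5% of silent genes. TGACGTCA (2.65% of all, 1.25% of silent genes) and TTGCGCAA (0.183% of all, 0.113% of silent genes) had no match in the 30 windows. A match describes the letters in the window and says nothing of a factor bound there.

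The first tested comparison asked what GNF-7 did to the members in senescent cells after 6 h. At an edgeR adjusted p under 0.05, 15 of the 41 members were called higher and 0 lower (0 also by DESeq2, 1 by limma voom, where SCN4B fell). At an unadjusted edgeR p under 0.05, 2 members, CRH and SCN4B, were lower. Among all genes tested, 17.9% were called higher and 21.4% lower. Among the 1235 other coding genes with a vehicle level in the range of the members, 18.9% were called higher and 5.26% lower. The median log2 fold change of the members was 0.34, against 0.01 for all genes and 0.14 for the coding genes in that range. The vehicle libraries entered the rule as a floor on their counts, whereas the GNF-7 libraries did not enter it. Summed counts of the members were 2128 to 2574 in the GNF-7 libraries and 1639 to 1903 in vehicle, without overlap.

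The members that rose most at 6 h were BLNK (log2 fold change 1.45, SE 0.24), ABCC9 (1.299, SE 0.30), ZSCAN4, C19orf85 (1.26, SE 0.23), PNLIPRP3 (1.17, SE 0.20), ZNF117 and BEST4 (1.07, SE 0.28), with edgeR adjusted p from 7.695e-07 to 0.001613. The call of each of these 7 held under every alternative. BLNK is an adaptor of B cell receptor signalling, and BEST4 is a chloride channel of the bestrophin family. ABCC9, a regulatory subunit of potassium channels that sense ATP, was the 1 member called at 6 h but not at 24 h. Its counts were 15, 26 and 49 in vehicle and 74, 77 and 74 in GNF-7 at 6 h, and 62, 34 and 30 in vehicle and 52, 76 and 53 in GNF-7 at 24 h, where the groups overlapped (0.45, SE 0.29, edgeR adjusted p 0.187). The difference of the 6 h and 24 h effects was not called (-0.85, SE 0.42, edgeR adjusted p 0.122). Without vehicle 6 h replicate 3, the 6 h value of ABCC9 moved to 1.89 and that difference to -1.45, which was then called.

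The 8 other calls at 6 h were lost when single libraries were left out. CALML6 (0.77) fell short without vehicle replicate 1 (0.68) or 3 (0.52) or GNF-7 replicate 2 (0.43). SMIM10L2A (0.83) did so without vehicle replicate 2 (0.71) or GNF-7 replicate 1 (0.51), and FOLR3 (0.78) without vehicle replicate 1 (0.65). KLHL38 (0.71) and MYO16 (1.01) did so without GNF-7 replicate 2, at 0.50 and 0.85. CNTNAP4 (0.83) did so without vehicle replicate 2 (0.47) or GNF-7 replicate 2 (0.69) or 3 (0.62), and in a fit of only these groups (0.85). PRAM1 (0.51) did so without vehicle replicate 1 (0.34) or 3 (0.36) or GNF-7 replicate 2 (0.44), without a filter (0.49) and in a fit of only these groups (0.52). UNC13A (0.66) did so without vehicle replicate 1 (0.38) or GNF-7 replicate 2 (0.34), without a filter (0.64), under DESeq2 (0.67) and under limma voom (0.67). These 8 members are therefore less certain at 6 h than the 7 above.

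After 24 h of GNF-7, 29 of the 41 members were called higher and 3 lower by edgeR, against 29.3% of all genes higher and 29.7% lower. Of the coding genes in the same range of level, 40.1% were higher and 10.8% lower. The median log2 fold change of the members was 1.47, against 0.04 for all genes and 0.38 for the genes in the same range. On the CPM scale, all 3 GNF-7 libraries lay above all 3 vehicle libraries for 28 members and below them for 3. The shares were 32.2% and 30.9% of all genes, and 43.7% and 12.5% of the coding genes in the same range. A rise of at least 2-fold was called for 25 members, against 10.3% of all genes and 21.1% of the coding genes in the same range. Summed counts of the members were 4858 to 5665 in GNF-7 and 1641 to 1831 in vehicle. Without ZNF117 the sums were 145 to 161 CPM in GNF-7 and 56.3 to 61.7 CPM in vehicle, so the gap did not rest on that gene.

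**Figure D4:**
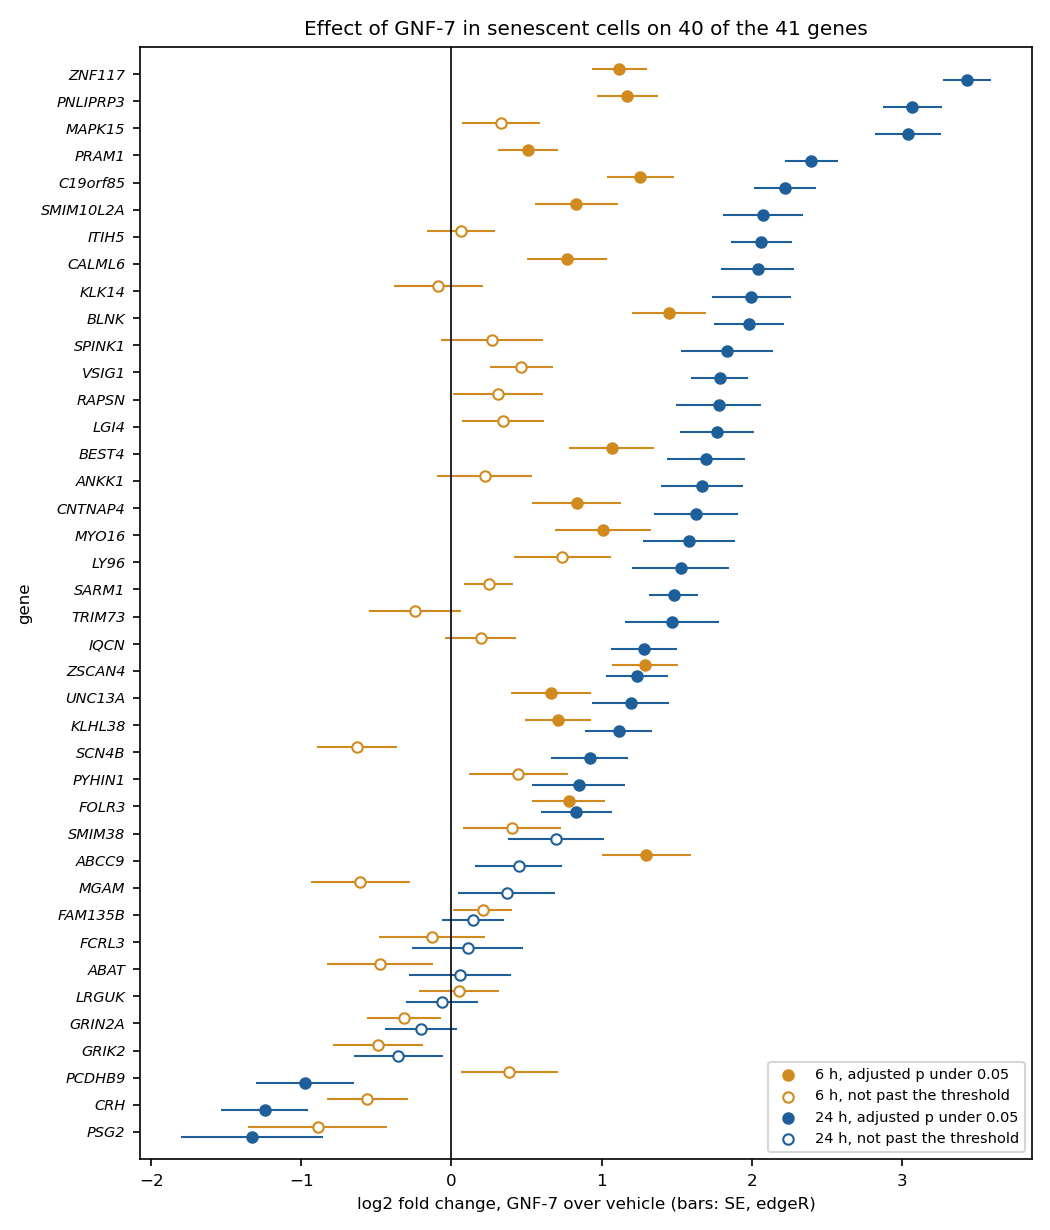
Log2 fold change of GNF-7 over vehicle in senescent cells for 40 of the 41 genes at 6 h and 24 h. Bars show 1 standard error, computed from the edgeR fold change and F statistic, and filled points an adjusted p under 0.05. At 24 h 28 filled points lie right of 0 and 3 left of it, and the values run from 3.44 for ZNF117 to -1.33 for PSG2.

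Of the 29 members that rose at 24 h, 14 had also risen at 6 h and 15 had not been called at 6 h. In this edgeR fit no member was called higher at one time and lower at the other. SCN4B, higher at 24 h, was called lower at 6 h under limma voom (-0.63) and without GNF-7 6 h replicate 3 (-0.76). The members not called at either time were ABAT, FAM135B, FCRL3, GRIK2, GRIN2A, LRGUK, MGAM and SMIM38, with log2 fold changes at 24 h from -0.35 to 0.70. SMIM38 (0.70, edgeR adjusted p 0.057) was called in some other fits, namely with total counts (0.72), with limma voom (0.74), with only these groups (0.70), without replicate 3 of vehicle (1.03) and without replicate 1 of GNF-7 (0.87). The floor of the rule was also put to the GNF-7 groups. Members had met it in every senescent vehicle library, so a high number was favoured in advance. The share among other genes at the floor was not computed, so nothing particular to the members is read from it. In each GNF-7 group, 40 of the 41 members had at least 15 counts in every library, and PSG2 alone was under that floor, with a lowest count of 8.

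PNLIPRP3, a gene of the pancreatic lipase family (ENSG00000203837, chr10:116427867-116477957, plus strand), had 0 counts in cycling cells. Vehicle libraries held 30, 55 and 44 counts at 6 h and 30, 39 and 34 at 24 h, and GNF-7 libraries 102, 100 and 91 at 6 h and 301, 312 and 312 at 24 h. No group with GNF-7 overlapped its vehicle, and the 24 h value was the second highest of the members (log2 3.07, SE 0.19, edgeR adjusted p 2.639e-21). MAPK15, an atypical MAP kinase (ENSG00000181085, chr8:143716259-143722458, plus strand), had 0 counts in cycling cells, 26, 45 and 24 in vehicle at 6 h and 36, 30 and 21 in vehicle at 24 h. It had 42, 42 and 36 counts in GNF-7 at 6 h, which overlapped vehicle, and 199, 291 and 272 at 24 h, which did not. Its rise was called at 24 h (3.04, SE 0.22, edgeR adjusted p 1.204e-18) and not at 6 h (0.33, SE 0.26, edgeR adjusted p 0.334). PRAM1, an adaptor of myeloid cells (chr19:8490056-8503112), went from 70, 69 and 49 counts in vehicle to 345, 377 and 330 in GNF-7 at 24 h (2.40, SE 0.18, edgeR adjusted p 1.44e-18). ZNF117, PRAM1 and PNLIPRP3 together held 23.8% of the summed member CPM in GNF-7 at 24 h.

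Grouped by what their proteins are known for, a grouping made after the symbols were seen, 12 members belong to nerve and muscle. At 24 h of GNF-7, 7 of these were called higher by edgeR, 2 lower and 3 not called, with a median of 1.06. Beside each of these groups stand the 29.3% of all genes and 40.1% of coding genes in the same range that were higher at 24 h, and nothing particular to a group is read from its count. RAPSN, which clusters acetylcholine receptors at the neuromuscular junction, rose by 1.78 (SE 0.28), from 32, 21 and 22 to 83, 98 and 93 counts. LGI4, a secreted protein of myelinating glia, rose by 1.77 (SE 0.25) and CNTNAP4, a neurexin-like adhesion protein, by 1.63 (SE 0.28). SARM1 rose by 1.48 (SE 0.16), from 82, 88 and 69 to 225, 244 and 240 counts, and its gene span overlaps 4 coding genes on the other strand. Also higher were MYO16 (1.58), an unconventional myosin of nerve cells, UNC13A (1.19), which readies synaptic vesicles for release, and SCN4B (0.92), an accessory subunit of sodium channels. The glutamate receptor subunits GRIN2A (-0.20, SE 0.24) and GRIK2 (-0.35, SE 0.30), and ABAT (0.06, SE 0.34), which breaks down the transmitter GABA, were not called.

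The members that fell with GNF-7 at 24 h were CRH, PCDHB9 and PSG2. CRH (ENSG00000147571, chr8:66176382-66178725, minus strand) went from 56, 61 and 63 counts in vehicle to 19, 29 and 33 in GNF-7 (log2 -1.25, SE 0.29, edgeR adjusted p 0.0001724), without overlap, and this call held in each alternative. PCDHB9, a clustered protocadherin of neuronal adhesion, went from 38, 49 and 46 to 31, 17 and 24 counts (-0.98, SE 0.33, edgeR adjusted p 0.008256). Of its 50-base stretches 28.96% occur in other genes, and without GNF-7 24 h replicate 2 its call was lost (-0.77). PSG2, a pregnancy-specific glycoprotein of the placenta, went from 30, 23 and 19 to 8, 9 and 13 counts (-1.33, SE 0.47, edgeR adjusted p 0.01307). It shares 19.4% of its stretches with relatives, and its call was lost without replicate 1 of vehicle (-1.22) and without replicate 1 (-1.20) or 2 (-1.25) of GNF-7. The calls of PCDHB9 and PSG2 thus rest on single libraries.

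Of the 6 members known from blood and immune cells, 5 rose at 24 h and 0 fell (median 1.19). Beside CRH, PCDHB9 and PSG2, no member was lower at an unadjusted p under 0.05 at 24 h by edgeR, DESeq2 or limma voom. BLNK had 0, 0 and 1 counts in cycling cells, 26, 33 and 37 in vehicle at 24 h and 132, 138 and 136 in GNF-7 at 24 h (1.98, SE 0.23, edgeR adjusted p 5.094e-11). LY96, the partner of TLR4 in sensing bacterial lipopolysaccharide, had 15, 16 and 35 counts in vehicle and 62, 73 and 71 in GNF-7 (1.53, SE 0.32). The other risers were PRAM1, with the largest rise of the group, PYHIN1 (0.85), an interferon-inducible protein, and FOLR3 (0.83), a secreted folate binder. Of the 50-base stretches of FOLR3, 8.665% also occur in other genes, among them FOLR2. The call of PYHIN1 was lost without replicate 2 of vehicle (0.74) and without replicate 1 (0.79) or 2 (0.64) of GNF-7. FCRL3, an Fc receptor-like protein of lymphocytes, was not called (0.11, SE 0.37), with 19, 43 and 23 counts in vehicle and 36, 44 and 18 in GNF-7. PTPRC, a marker of leukocytes at large, did not reach 15 counts in every library of any group.

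Of the 7 members that encode secreted or surface proteins of gut, gland, skin or placenta, 5 rose at 24 h and PSG2 fell (median 1.83). Beside PNLIPRP3 these were ITIH5, KLK14, SPINK1 and VSIG1. ITIH5, of the family that binds hyaluronan, went from 57, 38 and 38 to 189, 210 and 191 counts (2.06, SE 0.20, edgeR adjusted p 1.507e-13). KLK14, a serine protease of skin, went from 40, 31 and 26 to 113, 163 and 135 counts (2.00, SE 0.26), and SPINK1, the trypsin inhibitor of pancreatic juice, from 17, 23 and 28 to 73, 96 and 92 counts (1.83, SE 0.31). VSIG1, an immunoglobulin-like surface protein of the stomach, rose by 1.79 (SE 0.19). MGAM, a gut enzyme that digests starch, was not called (0.37, SE 0.32). In each of ITIH5, KLK14, SPINK1 and VSIG1 the GNF-7 libraries lay above all vehicle libraries at 24 h, and none of them was called at 6 h.

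Channel, signalling and adaptor proteins made up 8 members, of which 7 rose at 24 h and 0 fell (median 1.57). After MAPK15, the largest rises were those of CALML6, a calmodulin-like protein (2.04, SE 0.24), BEST4 (1.70, SE 0.26), ANKK1, a kinase with ankyrin repeats (1.67, SE 0.27), and TRIM73 (1.47, SE 0.31). TRIM73 is uncertain, since 38.2% of its stretches occur in other genes and it overlaps NSUN5P1, a pseudogene with 347 to 424 counts in cycling cells, on the same strand. KLHL38, a kelch-like protein, also rose (1.11, SE 0.22). ABCC9 was the member not called.

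Of the 6 little described members, 3 rose at 24 h and 0 fell (median 0.99), which is near the 40.1% of coding genes in the same range. C19orf85 (chr19:55463002-55464707) went from 46, 43 and 35 to 167, 247 and 202 counts (2.22, SE 0.21, edgeR adjusted p 1.22e-14). SMIM10L2A rose by 2.08 (SE 0.27) and IQCN by 1.28 (SE 0.22). SMIM10L2A shares 4.46% of its stretches with other genes, mainly SMIM10L2B, which had 1 to 18 counts in GNF-7 at 24 h. SMIM38 lies in the span of TPCN2, a coding gene on the same strand with 198 to 263 counts in cycling cells, and shares 9.06% of its stretches with it.

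An interaction term tested the change in the GNF-7 effect from 6 h to 24 h. It was called higher at 24 h for 18 members and lower for 1 by edgeR, against 12.8% and 18.0% of all genes and 17.0% and 5.91% of the coding genes in the same range of level. The median difference was 0.79 for the members and 0.23 for the coding genes in the same range. MAPK15 (2.71, SE 0.35), ZNF117 (2.32, SE 0.25), KLK14 (2.08, SE 0.40) and ITIH5 (2.00, SE 0.31) had the largest, with edgeR adjusted p from 3.079e-11 to 2.472e-05. PCDHB9 was the member with a lower effect at 24 h (-1.36, SE 0.46, edgeR adjusted p 0.0176), a call lost without the first GNF-7 library at 6 h (-1.20) or the second at 24 h (-1.16). For SCN4B the effects had opposite signs, -0.63 at 6 h, which was not called, and 0.92 at 24 h, and the difference was called (1.55, SE 0.37, edgeR adjusted p 0.0006302). For 11 members that rose at 24 h the difference was not called, among them BLNK, BEST4, LY96 and ZSCAN4. A missed call does not show that the effects were equal.

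GNF-7 libraries at 24 h were also compared with GNF-7 libraries at 6 h, none of which entered the rule. By edgeR, 25 members were higher and 1 lower, against 23.1% and 24.7% of all genes and 28.7% and 10.7% of the coding genes in the same range. The median was 0.75, against 0.02 for all genes and 0.26 for the coding genes in the same range. Scaled by total counts, 21 members were higher, and of all called genes 34.3% were higher in place of 48.3%. MAPK15 (2.67), ZNF117 (2.33), KLK14 (2.09) and PRAM1 (2.04) rose most. CRH was the member that fell (-0.75, SE 0.30, edgeR adjusted p 0.03209). That call was lost without replicate 2 (-0.71) or 3 (-0.69) at 6 h and without replicate 1 (-0.56) or 2 (-0.79) at 24 h.

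Vehicle at 24 h was compared with vehicle at 6 h. The rule required at least 15 counts in every library of both groups, so a gene off at either time could not be a member, and a low number of changes was favoured in advance. By edgeR 1 member was higher and 0 lower (0 lower also by DESeq2 and by limma voom, and 1, TRIM73, at an unadjusted edgeR p under 0.05), against 9.26% and 9.29% of all genes and 2.51% and 3.4% of the coding genes in the same range of level. The member was LRGUK, a little described protein with leucine-rich repeats, with 41, 40 and 37 counts at 6 h and 81, 59 and 53 at 24 h (0.78, SE 0.25, edgeR adjusted p 0.02108). Its groups did not overlap, but the call was lost without replicate 2 (0.76) or 3 (0.78) at 6 h, without replicate 1 at 24 h (0.67) and without a filter on low counts (0.77). Scaled by total counts, TRIM73 (-0.92) and SARM1 (-0.45) were called lower, and the median of all genes moved from 0.01 to -0.10. The share of members called was near that of the coding genes in range, and the median of the members was 0.08.

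**Figure D5:**
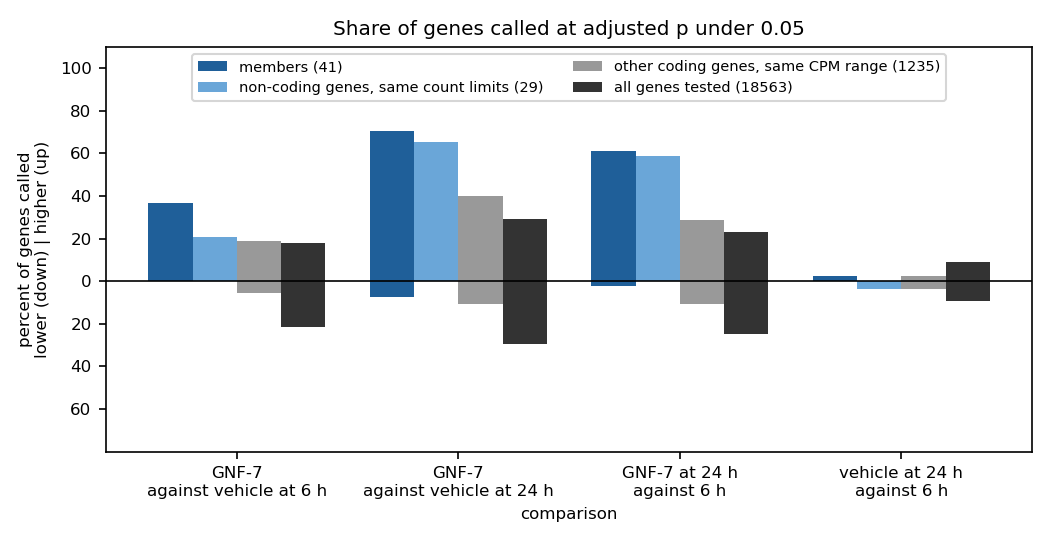
Percent of genes called by edgeR in 4 comparisons, higher above the line and lower below it, for the 41 members, 29 non-coding genes that met the same count limits, 1235 other coding genes in the same range of level and all 18563 genes tested. At 24 h of GNF-7 the bars for higher genes stand at 70.7% of members, 65.5% of the non-coding genes, 40.1% of the coding genes in range and 29.3% of all genes.

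The same count limits were met by 29 non-coding genes, 14 of them lincRNAs and 10 antisense genes, whose reads cannot be told apart from their partners' where counting ignores strand. With GNF-7, 6 of the 29 were called higher and 0 lower at 6 h, near the 17.9% of all genes and 18.9% of coding genes in range. At 24 h, 19 were higher and 0 lower (median 1.13), against 29.3% and 40.1%. Measures over whole libraries also differed between groups. The share of counts in non-coding genes was 1.40 to 1.42% in cycling cells, 1.93 to 2.01% in vehicle, 2.22 to 2.43% in GNF-7 at 6 h and 2.49 to 2.57% at 24 h. Of coding genes silent by the rule, 706 to 743 had at least 1 count per cycling library and 1709 to 1815 in vehicle. In GNF-7 libraries the numbers were 2020 to 2120 at 6 h and 2197 to 2280 at 24 h. Low cycling counts chose these genes, so a lower number in cycling libraries was favoured in advance. Of all coding genes, 14074 to 14188 had a count per cycling library and 15155 to 15288 in vehicle. With GNF-7 it was 15502 to 15600 at 6 h and 15679 to 15769 at 24 h. Mitochondrial genes held 3.75 to 5.01% of counts in cycling cells, 11.2 to 12.4% in vehicle at 6 h, 13.2 to 15.3% in GNF-7 at 6 h, 15.1 to 18.7% in vehicle at 24 h and 22.6 to 24.1% in GNF-7 at 24 h. The part of these measures in the rise of the members was not tested.

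Lists of tissue genes were set beside the rule. Over all silent coding genes, 0.668% reached the floor of 15 counts in each vehicle library. Of 35 neuronal and synaptic genes that were silent in cycling cells, 1 (GRIN2A) reached the floor in senescent vehicle cells. None of 33 silent epidermal genes, 34 cancer-testis and germline genes, 38 blood and immune genes, 34 muscle genes, 50 developmental transcription factors and 3 p53 targets reached it. Counts of 0 or 1 in lists of this size are near the share over all silent genes, and a gene under the floor may still have had reads. GRIN2A had 2, 2 and 1 counts in cycling cells, 64, 67 and 57 in vehicle at 6 h and 59, 51 and 67 in GNF-7 at 24 h, and it was not called in any of the 5 tested comparisons. With GNF-7 at 24 h, 5 of 20 neuronal genes tested were higher and 4 lower (median 0.18), as were 5 and 1 of 19 blood genes (0.32), 6 and 3 of 14 muscle genes (0.94), 4 and 1 of 13 epidermal genes (0.63), 2 and 7 of 18 germline genes (-0.17), 8 and 2 of 25 developmental factors (0.18) and 23 and 15 of 50 p53 targets (0.12).

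The members lay on 13 chromosomes, with 8 on chromosome 19, 5 each on chromosomes 1, 8 and 11, and 4 on chromosome 7. They made up 2.28% of the silent coding genes of chromosome 8 and 1.48% of those of chromosome 19. Over all silent coding genes, 0.668% met the count limits. Chromosomes 2 and 3, with 325 and 312 silent coding genes, held 0 members. The distribution over chromosomes was not tested. No 2 members were neighbours without another coding gene between them. ABAT and GRIN2A on chromosome 16 lay near each other, with 6 coding genes between them. Exons of the members were 4415 bases long in the median, from 607 for LY96 to 16696 for GRIN2A.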

How the data were processed

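Gene counts were measured by RNA-seq in 15 HT-1080 libraries, and the authors deposited 1 table of raw counts. Reads were processed with bcl2fastq 2.20.0.422, STAR 2.7.9a and featureCounts 1.5.1 on GRCh38, per the submitters' processing notes. The strand setting and the annotation release are not given in the sources used here. Positions, gene types and exonic lengths came from GENCODE 29, which holds 58452 of the 60670 genes. Of the 60673 lines in the table, 3 that name no whole entry were left out.

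The members and all lists were chosen with earlier results of these data known. Role groups, the genes in the same range of level, the 50-base copy check and the reverse rule were added after the data were seen. Genes were named by a fixed rule (ZNF117, the 10 highest RPKM, the 4 largest changes each way in each tested comparison, those at the edges of the rule, list members and neighbours). Others named, such as overlapping genes and members whose calls changed, were chosen after their values were seen. Of the members, 1 is counted but not reported here by name.

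All 5 groups were fitted together in edgeR 4.0.16 under R 4.3.3, with the filter of filterByExpr (18563 genes), TMM scaling, the quasi-likelihood test and Benjamini-Hochberg adjustment over all genes at 0.05. CPM and RPKM were computed from the deposited counts with TMM library sizes. Each SE was computed as the absolute log2 fold change over the square root of the F statistic of the quasi-likelihood test. The biological coefficient of variation was 4.64%. Libraries of 1 group differed beyond sampling noise (chi-square per degree of freedom 3.02 to 12.73). The labels give no batch. Alternatives were DESeq2 1.42.0, limma 3.58.1 (voom), RLE and total-count scaling, no filter, only the groups compared, a replicate block and leaving out each library. Tested on simulated data for GNF-7 against vehicle at 24 h, edgeR recovered 185 of 200 genes changed 2-fold. It made 10 false calls among 17321 genes. Of 40 members raised 2-fold there, edgeR recovered 36, DESeq2 33 and limma voom 35. The simulation gave every gene the same biological spread, so it does not cover genes with a larger one.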

Additional observations from a re-analysis of the deposited data

Results flagged for a closer look

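The 24 h and 6 h effects of the compound differed by the test of the difference itself (edgeR quasi-likelihood, adjusted p under 0.05 over all genes) for 19 members. The differences, as the log2 effect at 24 h minus that at 6 h, were 2.71 for MAPK15, 2.32 for ZNF117, 2.08 for KLK14, 2.00 for ITIH5, 1.90 for PNLIPRP3 and 1.89 for PRAM1. They were 1.71 for TRIM73, 1.56 for SPINK1, 1.55 for SCN4B, 1.47 for RAPSN, 1.45 for ANKK1 and 1.43 for LGI4. They were 1.32 for VSIG1, 1.27 for CALML6, 1.24 for SMIM10L2A, 1.23 for SARM1, 1.09 for IQCN and 0.96 for C19orf85. PCDHB9 was the member with a lower effect at 24 h, at -1.36. The calls for CALML6, SMIM10L2A, C19orf85 and PCDHB9 were lost when a single library was left out, and that for ANKK1 under DESeq2 (1.41). CALML6 was then at 0.84 (without vehicle 6 h replicate 2), SMIM10L2A at 1.05 (without vehicle 6 h replicate 3) and C19orf85 at 0.82 (without replicate 1 of vehicle at 6 h, or replicate 2 of GNF-7 at 24 h).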

How the results depend on the processing

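The number of members depends on the limits. It was 7 at no count in any cycling library, 185 at up to 10 counts there, 72 at a senescent floor of 10 and 17 at a floor of 30. On counts scaled to a common library size it was 29, of which 28 were among the 41. Leaving out 1 library of the rule gave 41 to 60 members. Members called higher numbered 10 to 15 at 6 h of GNF-7, 27 to 30 at 24 h, 20 to 28 for GNF-7 at 24 h against 6 h and 17 to 19 for the interaction over the alternatives, with the fits that left out 1 library at 10 to 14, 27 to 30, 20 to 25 and 17 to 19. Members called lower numbered 1 at 6 h under limma voom. Leaving out 1 library gave 0 to 1 lower at 6 h, 1 to 3 at 24 h, 0 to 1 for GNF-7 at 24 h against 6 h and 0 to 2 for the interaction. For vehicle at 24 h against 6 h, 0 members were higher without a filter on low counts, 0 to 1 when 1 library was left out, and 2 were lower with total counts. The median of the members in that comparison turned from 0.08 to -0.0319 with total counts and to -0.0143 without vehicle 6 h replicate 1, the lowest value when 1 library was left out, against a highest of 0.1725. The cause was not tested. No member changed the direction of a call. Of 30 pairs of libraries with the same replicate number, 0 had deviations correlated over 0.1 (-0.0369 to 0.0579). This cut cannot exclude a weak pairing. Vehicle 24 h replicate 1, for example, had 0.0579 with GNF-7 24 h replicate 1 and -0.0686 with replicate 2. With the replicate block, 15, 29, 26, 1 and 18 members were higher at 6 h, at 24 h, for GNF-7 at 24 h against 6 h, for vehicle and for the interaction. At a few counts per library in cycling cells, a low level there and none cannot be told apart.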

Other observations

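The count limits can be put to each senescent group alone, keeping the limit of 3 counts in each cycling library. By these limits 57 silent coding genes were at or above 15 counts in each vehicle library at 6 h and 54 in each vehicle library at 24 h. In GNF-7 libraries the numbers were 109 at 6 h and 215 at 24 h. These are counts of genes with no test, and GNF-7 was not given to cycling cells. In the other direction, 2 coding genes had at least 15 counts in each cycling library and at most 3 in each vehicle library at 6 h, and 0 did so over both vehicle groups.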
